A study of Mus musculus with 12 samples.

Results

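The 10 genes of the core circadian loop described here are the 3 activator genes Arntl (also named Bmal1), Npas2 and Clock and the 7 repressor genes Per1, Per2, Per3, Cry1, Cry2, Ciart and Nr1d1. They were chosen by their log2 fold changes between the sire groups compared below and by their known places in the loop, and were taken by symbol from a table of 78317 gene IDs. All 10 were present and passed the filter on low counts. The table held read counts from heart ventricle of C57BL/6J mice in 12 libraries. The 6 injured-sire libraries (replicates 12 to 17) came from offspring of males given a cardiac cryoinjury, an injury by freezing, on postnatal day 1, and the 6 uninjured-sire libraries (replicates 18 to 23) from offspring of males left uninjured. The hearts sequenced were themselves uninjured, and the labels name no transgene or treatment of the offspring. The labels place collection at 3 wpp and also call the offspring adult, and both statements are kept here. By their count the injured-sire animals were 3 males and 3 females, and 4 of the uninjured-sire animals were male and 2 female, with no sex, sire or litter given per animal. These counts include replicate 16. Replicate 16 of the injured-sire group was excluded from the submitters' downstream work as an outlier, so group values below rest on 5 and 6 libraries and replicate 16 is given apart.

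The loop works as a daily feedback. The proteins of Clock or Npas2 pair with that of Arntl and switch on genes that carry E-box letters, among them the Per, Cry, Ciart and Nr1d1 genes. The Per and Cry proteins then return to the nucleus and shut the pair off, Ciart protein also holds it back, and the Nr1d1 product REV-ERBα represses Arntl through ROR elements. Transcripts of activators and of most repressors therefore peak at opposite times of day in mouse tissues, and in heart this clock times metabolic and electrical genes. Animals were housed with 12 h of light per day, and the labels give no hour of collection for any animal, so a difference in the hour of collection and a difference in the clock at one hour cannot be told apart.

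The promoters of 4 members are shown because they hold the letters through which the loop is known to close. Windows of 300 bases, 250 before and 50 after a RefSeq transcript start on GRCm38.p6, were found for 9 of the 10 genes, in 13 windows, and Per2 had none. Capitals mark the matches, on either strand, to an E-box (CACGTG), an E'-box (CACGTT), a D-box (TTATGTAA or TTATGCAA, bound by Dbp, Tef and Hlf) or the core of a ROR element (TAGGTCA or TGGGTCA). The Ciart window lies at chr3:95882179-95882478 on the minus strand, the Per3 window at chr4:151044616-151044915 on the minus strand, the Per1 window at chr11:69098699-69098998 on the plus strand and the Arntl window at chr7:113207261-113207560 on the plus strand.
Ciart: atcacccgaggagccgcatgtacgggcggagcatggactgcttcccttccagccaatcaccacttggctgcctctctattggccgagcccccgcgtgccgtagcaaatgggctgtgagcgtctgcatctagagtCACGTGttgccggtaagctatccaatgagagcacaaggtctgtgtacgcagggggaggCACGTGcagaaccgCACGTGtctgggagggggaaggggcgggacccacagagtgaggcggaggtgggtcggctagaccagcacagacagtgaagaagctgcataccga
Per3: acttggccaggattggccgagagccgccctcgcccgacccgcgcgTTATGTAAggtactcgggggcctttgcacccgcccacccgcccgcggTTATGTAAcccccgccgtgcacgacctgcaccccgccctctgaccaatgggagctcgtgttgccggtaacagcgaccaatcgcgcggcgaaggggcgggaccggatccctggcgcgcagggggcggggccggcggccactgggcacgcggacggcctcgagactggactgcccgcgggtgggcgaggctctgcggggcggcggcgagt
Per1: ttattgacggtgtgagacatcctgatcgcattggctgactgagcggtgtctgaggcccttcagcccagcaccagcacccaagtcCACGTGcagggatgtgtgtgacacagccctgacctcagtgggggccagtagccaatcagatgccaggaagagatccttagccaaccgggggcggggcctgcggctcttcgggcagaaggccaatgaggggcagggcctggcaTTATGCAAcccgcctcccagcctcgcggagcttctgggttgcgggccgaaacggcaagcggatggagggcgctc
Arntl: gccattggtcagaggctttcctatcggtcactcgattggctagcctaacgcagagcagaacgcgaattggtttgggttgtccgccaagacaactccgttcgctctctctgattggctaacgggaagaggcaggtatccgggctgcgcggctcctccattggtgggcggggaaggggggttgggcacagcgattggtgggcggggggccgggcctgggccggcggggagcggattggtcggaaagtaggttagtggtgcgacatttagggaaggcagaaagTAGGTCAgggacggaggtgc
The Ciart window held 3 E-boxes, which began 116, 58 and 44 bases before the start. Of all 32851 RefSeq windows of this length, 7.15% held at least 1 E-box and 0.0883% held 3 or more. The Per3 window held 2 D-boxes, 205 and 158 bases before the start, and 1.66% of all windows held at least 1. The Per1 window held an E-box and a D-box, and a second Per1 window held no match. Arntl held a ROR core 30 bases after the start in 1 of its 2 overlapping windows, against 6.45% of all windows. Of the remaining members, the Cry1 window held an E-box and an E'-box, the Cry2 and Nr1d1 windows an E'-box each, and the windows of Npas2 and Clock none. An E'-box stood in 4.68% of all windows. A match describes letters only and shows no binding.

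Offspring of injured males had lower transcript levels of all 3 activator genes and higher levels of 6 of the 7 repressor genes, with Nr1d1 as the exception. The largest differences were those of Ciart, at 2.99 times the level of offspring of uninjured males, and of Arntl and Npas2, at 0.458 and 0.483 times. Levels are in counts per 1000000 counts of a library (CPM). The members were chosen with this comparison in view, so their differences are given as a description with no p. The median absolute log2 fold change was 0.66 over the 10 members and 0.11 over all 17130 genes tested. Of all genes tested 0.105% passed the edgeR test (adjusted p below 0.05), 0.0525% higher and 0.0525% lower, and 1 member, Npas2, was among those lower. In this tissue RNA, fewer cells that express a gene and less RNA per cell cannot be told apart.

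**Figure D1:**
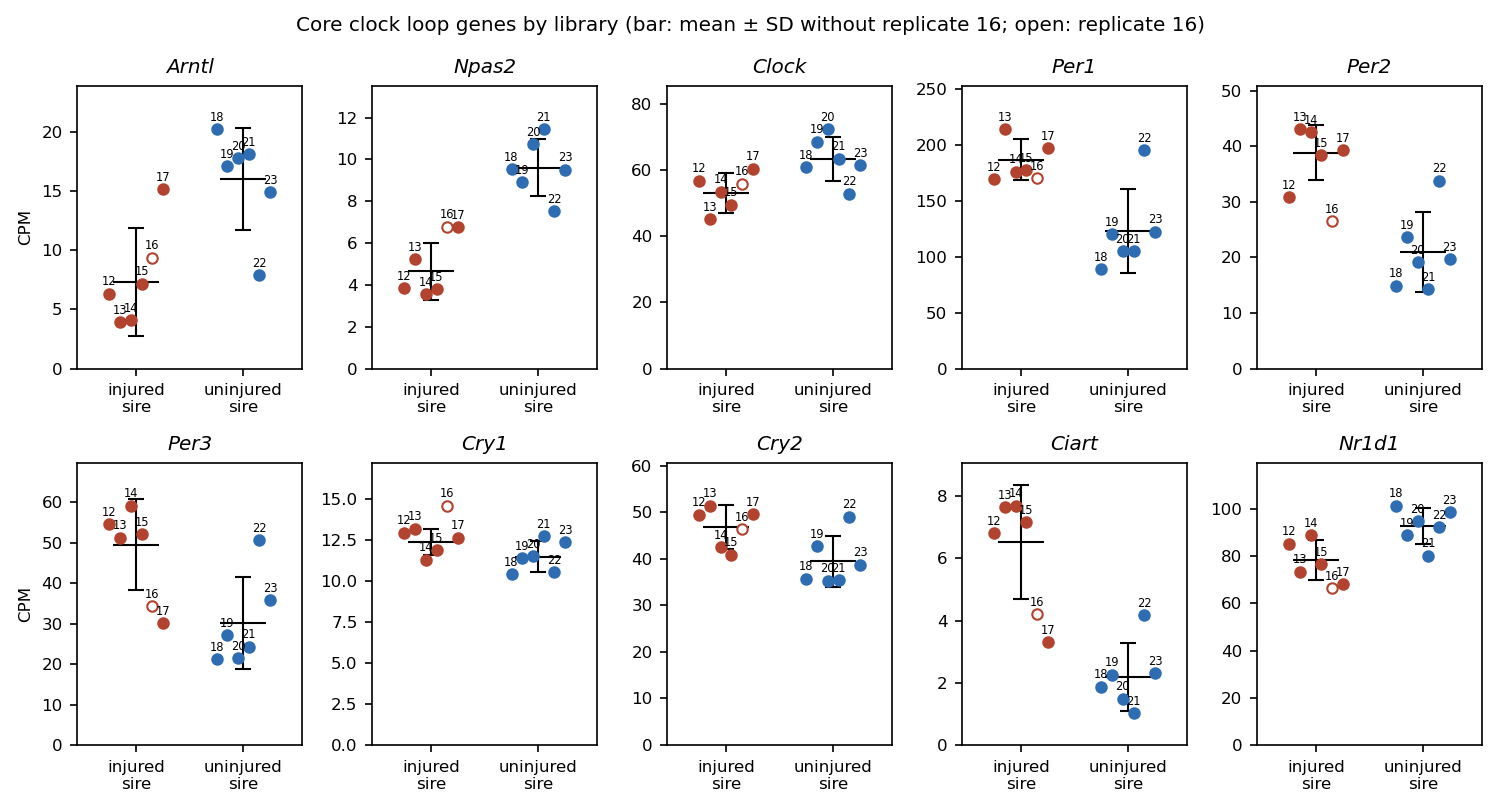
Transcript level of the 10 members in CPM (linear axes from 0) by library, injured-sire libraries on the left and uninjured-sire libraries on the right of each panel; numbers are replicates, bars the mean ± SD without replicate 16, and the open circle replicate 16. The 5 injured-sire libraries lie below all uninjured-sire libraries for Npas2, and replicate 22 lies among the injured-sire libraries for Per1, Per2, Per3 and Ciart.

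Arntl encodes BMAL1, the partner that Clock and Npas2 proteins share. It measured 6.33, 3.91, 4.09, 7.18 and 15.1 CPM in injured-sire replicates 12, 13, 14, 15 and 17, against 7.91, 17.4 and 20.2 CPM as the lowest, median and highest of the uninjured-sire libraries. Replicates 12 to 15 lay below every uninjured-sire library, while replicate 17 lay within their range, and the lowest uninjured-sire value was that of replicate 22. The means were 7.33 ± 4.58 CPM (SD, n = 5) and 15.99 ± 4.32 CPM (SD, n = 6), and the log2 fold change was -1.13 ± 0.388 (SE). Without injured-sire replicate 17 it was -1.57. Replicate 16 had 9.36 CPM, between the group means.

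Npas2 encodes a paralog of Clock that can take its place beside BMAL1. It measured 3.84, 5.23, 3.57, 3.81 and 6.77 CPM in injured-sire replicates 12, 13, 14, 15 and 17, against a lowest, median and highest value of 7.53, 9.52 and 11.5 CPM in the uninjured-sire libraries. All 5 injured-sire libraries lay below all 6 uninjured-sire libraries, which held for no other member and for 1.05% of all genes tested. The log2 fold change was -1.05 ± 0.165 (SE). The excluded replicate 16, at 6.78 CPM, also lay below every uninjured-sire library, although it was on the uninjured-sire side of the midpoint between the group means.

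Clock was the steadiest of the activators. Its 5 injured-sire values were 56.8, 45.2, 53.5, 49.6 and 60.5 CPM, against 53.0, 62.5 and 72.5 CPM as the lowest, median and highest uninjured-sire values, and the groups overlapped. The log2 fold change was -0.25 ± 0.0805 (SE). Set side by side per exonic length, Clock exceeded Npas2 by 3.01 to 5.23 times in the 5 injured-sire libraries, by 2.88 times in replicate 16 and by 1.94 to 2.69 times in the uninjured-sire libraries. These ranges do not overlap, but Npas2 alone already separates the groups and was chosen by its difference, so the ratio is given as a description.

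The Per genes encode the PERIOD proteins, which carry the inhibition back to the nucleus. Per1 measured 169, 214, 176, 177 and 197 CPM in injured-sire replicates 12, 13, 14, 15 and 17, against 89.0, 113 and 195 CPM as the lowest, median and highest uninjured-sire values. The highest uninjured-sire value was that of replicate 22, and the remaining 5 uninjured-sire libraries lay at 122 CPM or below. The log2 fold change was 0.61 ± 0.187 (SE), and replicate 16, at 170.4 CPM, lay with the injured-sire libraries.

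Per2 measured 30.8, 43.1, 42.6, 38.4 and 39.3 CPM in the same 5 injured-sire libraries, against 14.3, 19.4 and 33.8 CPM as the lowest, median and highest uninjured-sire values. Replicate 22 was again the highest of its group and overlapped 1 injured-sire library, replicate 12. The log2 fold change was 0.90 ± 0.217 (SE). Replicate 16 had 26.4 CPM, below every other injured-sire library.

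Per3 measured 54.6, 51.2, 59.1, 52.1 and 30.1 CPM in the injured-sire libraries, against 21.2, 25.7 and 50.6 CPM as the lowest, median and highest uninjured-sire values. Replicates 12 to 15 lay above the whole uninjured-sire group, and replicates 17 and 16 (34.4 CPM) lay within it. The log2 fold change was 0.72 ± 0.268 (SE). Within the Per family, Per1 made up 70.0 to 78.0% of the summed TPM in the 5 injured-sire libraries and 75.4 to 78.9% in the uninjured-sire libraries, so that the make-up of the family overlapped between the groups.

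The cryptochrome genes encode the partners of the PERIOD proteins and Cry1 differed least of the 10 members. Cry2 measured 49.5, 51.4, 42.5, 40.9 and 49.6 CPM in the injured-sire libraries, against 35.3, 37.3 and 49.1 CPM as the lowest, median and highest uninjured-sire values, a log2 fold change of 0.25 ± 0.0878 (SE). Cry1 measured 11.3 to 13.2 CPM in the injured-sire libraries and 10.4 to 12.7 CPM in the uninjured-sire libraries, a log2 fold change of 0.11 ± 0.0963 (SE). The Cry1 difference was close to its standard error, and replicate 16 had the highest Cry1 value of all 12 libraries, at 14.6 CPM.

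Ciart, also named Chrono, encodes a repressor that binds BMAL1, and its window above carries 3 E-boxes. It had 260, 254, 280, 297 and 113 counts in injured-sire replicates 12, 13, 14, 15 and 17, which are 6.80, 7.63, 7.69, 7.16 and 3.30 CPM. In the uninjured-sire libraries it had 43 to 153 counts, with 1.02, 2.07 and 4.17 CPM as the lowest, median and highest. Replicates 12 to 15 lay above the whole uninjured-sire group, replicate 17 lay below uninjured-sire replicate 22, and replicate 16 had 4.20 CPM. The log2 fold change of 1.58 ± 0.305 (SE) was the largest among the members.

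Nr1d1, whose product represses Arntl, stood apart from the other repressors. It measured 85.3, 73.5, 89.0, 76.6 and 68.0 CPM in the injured-sire libraries, against 80.2, 93.5 and 101 CPM as the lowest, median and highest uninjured-sire values, a log2 fold change of -0.24 ± 0.0720 (SE). The groups overlapped, and replicate 16 had the lowest value of all 12 libraries, at 66.5 CPM.

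**Figure D2:**
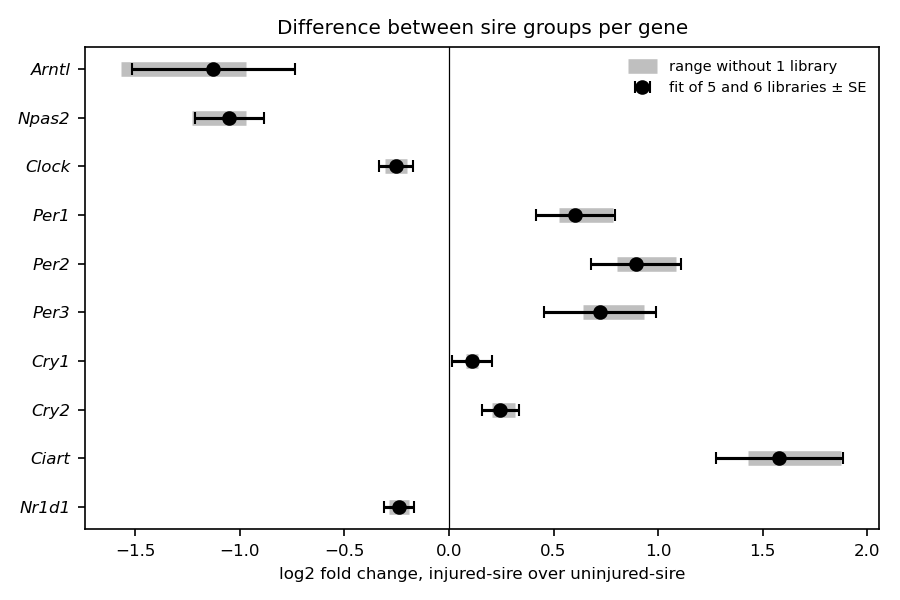
Log2 fold change of each member, injured-sire over uninjured-sire libraries, with its SE (black) and the range obtained when each of the 11 libraries was left out in turn (grey). The grey ranges of Arntl, Npas2, Clock and Nr1d1 lie below 0 and those of the other 6 genes above 0, from -1.57 for Arntl to 1.87 for Ciart.

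Single libraries decided where the groups overlapped. Without uninjured-sire replicate 22, 5 members (Npas2, Clock, Per1, Per2 and Ciart) had no overlap between the groups, against 1.86% of all genes tested. Without injured-sire replicate 17 there were 4 (Arntl, Npas2, Per3 and Ciart), against 2.45% of all genes tested. Leaving out any of the remaining 9 libraries gave 1 or 2 members. The members were chosen by their difference between these groups, so their counts beside the shares of all genes are a description only.

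Replicate 16 was left out of the edgeR comparison of the sire groups. The members were chosen with earlier results of these data known, which may have included this library, so it is no independent check. For 7 of the 10 members replicate 16 lay on the injured-sire side of the midpoint between the group means. The same held for 46.6% of all genes tested and 44.4% of those with an unadjusted edgeR p below 0.05. Npas2, Per2 and Per3 were the exceptions. Replicate 16 lay farthest from the midpoint for Nr1d1, at 6.06 against a midpoint of 6.41 log2 CPM. For Arntl (3.24 against 3.32) and Clock (5.81 against 5.85) it lay close to the midpoint. Many members vary together, and replicate 16 is 1 library that may have had a part in the choice of members. The count of 7 is therefore a description and no separate support.

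The balance between the arms was expressed per library as the mean log2 CPM of the 3 activators minus that of the 7 repressors. It was -1.75, -2.05, -2.08, -1.73 and -0.79 in injured-sire replicates 12, 13, 14, 15 and 17, and -1.03 in replicate 16. In uninjured-sire replicates 18 to 23 it was 0.09, -0.24, 0.12, 0.22, -1.26 and -0.37. Replicates 12 to 15 lay below every uninjured-sire library, and replicates 16 and 17 lay between uninjured-sire replicate 22 and the rest of that group. The group means were -1.68 ± 0.52 (SD, n = 5) and -0.24 ± 0.55 (SD, n = 6), a difference of -1.44 ± 0.32 (SE), or -1.33 ± 0.31 (SE) with replicate 16. No p is given, since the genes in this measure were chosen with their values known.

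**Figure D3:**
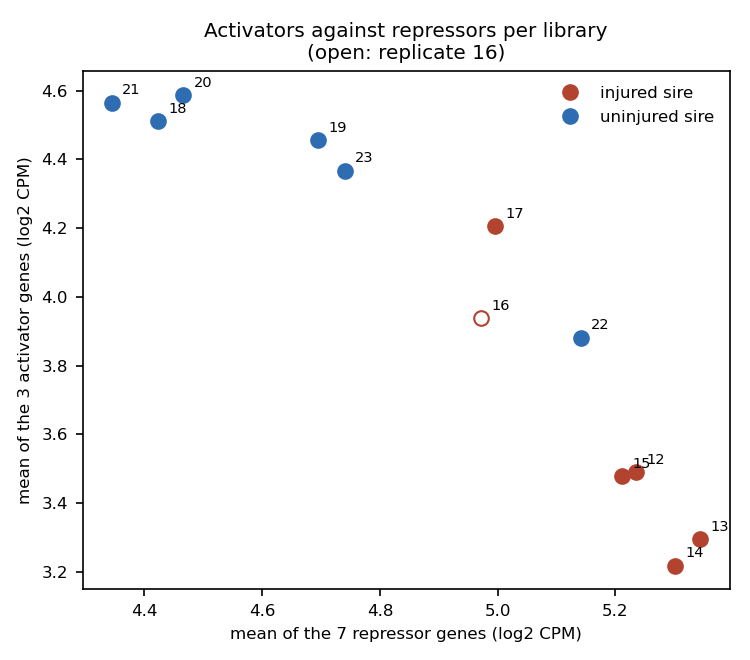
Mean log2 CPM of the 3 activator genes (vertical) against that of the 7 repressor genes (horizontal), 1 point per library, labelled by replicate, with replicate 16 open. Injured-sire replicates 12 to 15 occupy the lower right corner, 5 uninjured-sire libraries the upper left, and replicates 16, 17 and 22 the stretch between them.

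Within each sire group, the relation of Arntl to the other 9 members was examined over 6 libraries, replicate 16 included. The difference between the groups does not enter. The members were still chosen with earlier results of these data known, so these relations are no independent support. Over these 18 relations, 7 had an exact two-sided permutation p below 0.05 for Pearson's r and 3 remained after Benjamini-Hochberg adjustment, all of them negative. In the uninjured-sire group Per1 was lower where Arntl was higher (r = -0.98, exact permutation p = 0.00139, adjusted p = 0.025; Spearman's rho = -1, p = 0.00278, adjusted p = 0.05). That p is the smallest such a permutation of 6 libraries can give for r, and r was -0.96 without the 2 libraries farthest from the median of Arntl (22 and 23). Per3 followed in the same group, with r = -0.94 (exact permutation p = 0.00417, adjusted p = 0.0333; rho = -0.94, p = 0.0167, adjusted p = 0.15) and -0.69 without those libraries. In the injured-sire group Ciart alone passed, with r = -0.92 (exact permutation p = 0.00556, adjusted p = 0.0333) and Spearman's rho = -0.89 (exact permutation p = 0.0333, adjusted p = 0.15). Its r was -0.81 without replicates 13 and 17. By Spearman's rho, 4 of the 18 relations had an exact permutation p below 0.05 and none had an adjusted p below 0.05.

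The other relations did not pass after adjustment. Per3 had r = -0.88 in the injured-sire group and Ciart -0.81 in the uninjured-sire group (exact permutation adjusted p = 0.08 and 0.125). Per2 had r = -0.40 in the injured-sire and -0.88 in the uninjured-sire group (exact permutation adjusted p = 0.606 and 0.08). For Clock the values were 0.74 in the injured-sire and 0.75 in the uninjured-sire group (exact permutation adjusted p = 0.1875 in each). Arntl and Npas2 had r = 0.65 in the injured-sire group and 0.79 in the uninjured-sire group (exact permutation adjusted p = 0.271 and 0.166), and the second rested on the libraries farthest out, since it was -0.03 without replicates 22 and 23. Arntl and Per1 had r = -0.12 in the injured-sire group (exact permutation adjusted p = 0.878), where Per1 spanned 169 to 214 CPM. Whether the relation with Per1 or any other member differs between the groups was not tested. Arntl and Cry2 had r = 0.12 in the injured-sire group and -0.88 in the uninjured-sire group (exact permutation adjusted p = 0.878 and 0.1). For Cry1 the values were 0.32 in the injured-sire group and 0.31 in the uninjured-sire group (exact permutation adjusted p = 0.693 and 0.743), and for Nr1d1 -0.66 in the injured-sire group and 0.0047 in the uninjured-sire group (exact permutation adjusted p = 0.25 and 0.992).

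**Figure D4:**
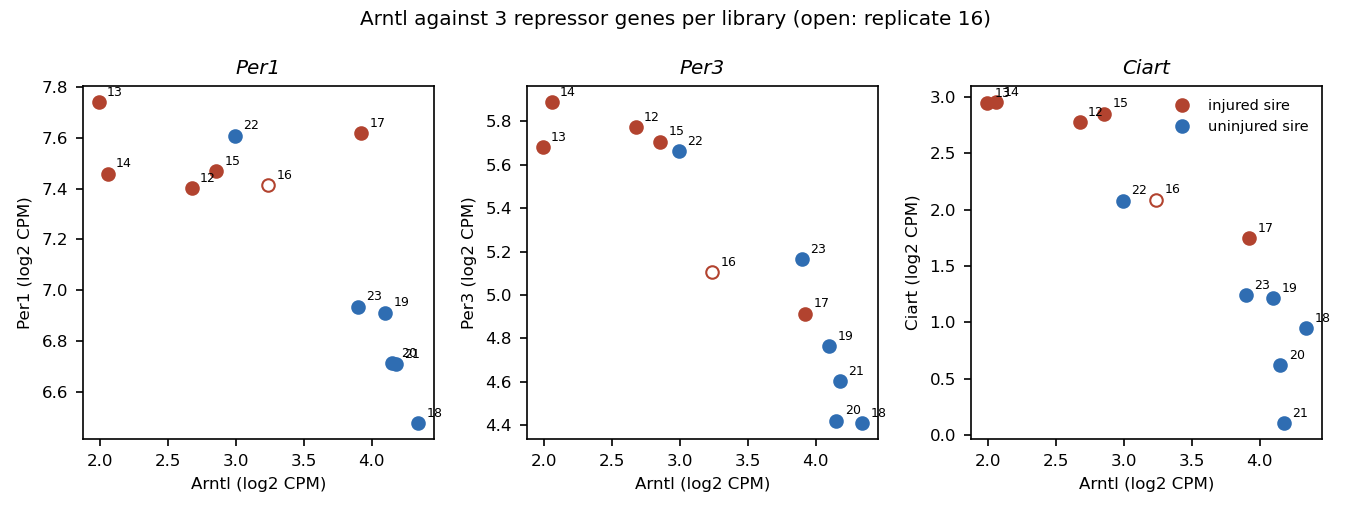
Log2 CPM of Per1, Per3 and Ciart (vertical axes) against Arntl (horizontal axes), 1 point per library, labelled by replicate, with replicate 16 open. In the injured-sire group Per1 lies between 169 and 214 CPM across the range of Arntl, and among the uninjured-sire libraries it is lower where Arntl is higher (r = -0.98).

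The members differed in how much they varied between animals of one group. The SD of log2 CPM about the group means was 0.64 for Arntl, 0.60 for Ciart, 0.45 for Per3, 0.36 for Per2 and 0.30 for both Npas2 and Per1, all above the median of 0.21 over the 17130 genes tested. Set against genes within 0.5 log2 CPM of the same level, a comparison chosen after seeing the data, the medians were 0.19 for Arntl, 0.33 for Ciart, 0.12 for Per3, 0.13 for Per2, 0.24 for Npas2 and 0.09 for Per1. Cry2 (0.17), Clock (0.16), Nr1d1 (0.14) and Cry1 (0.11) lay below the median of all genes. Among genes of the same level, Cry2, Clock and Nr1d1 lay above the medians of 0.12, 0.11 and 0.10, and Cry1 lay below that of 0.18. Without uninjured-sire replicate 22 the SD of Per1 was 0.16, against 0.30 with it.

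Levels were compared between genes per exonic length, as counts per base of exon scaled to 1000000 per library (TPM), where the length is that of all annotated exons of the gene. In the uninjured-sire libraries the order ran from Nr1d1 (79.2 ± 5.33 TPM, SD, n = 6) and Per1 (57.6 ± 18.6) through Cry2 (16.5 ± 2.46), Clock (12.1 ± 1.30), Per2 (9.41 ± 3.36), Cry1 (9.07 ± 0.923) and Per3 (8.27 ± 3.27) to Arntl (5.57 ± 1.45), Npas2 (5.28 ± 0.826) and Ciart (2.55 ± 1.30). Of the 9 neighbouring pairs in this order, 2 had ranges that did not overlap, Per1 above Cry2 and Cry2 above Clock. In the 5 injured-sire libraries Per1 (90.3 ± 8.85 TPM, SD, n = 5) stood above Nr1d1 (69.6 ± 8.30 TPM), and Ciart (7.87 ± 2.25 TPM) above Arntl (2.65 ± 1.65 TPM) and Npas2 (2.64 ± 0.764 TPM). Cry1 contributed 32.5 to 35.5% of the summed Cry TPM in those libraries and 28.9 to 40.5% in the uninjured-sire libraries.

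**Figure D5:**
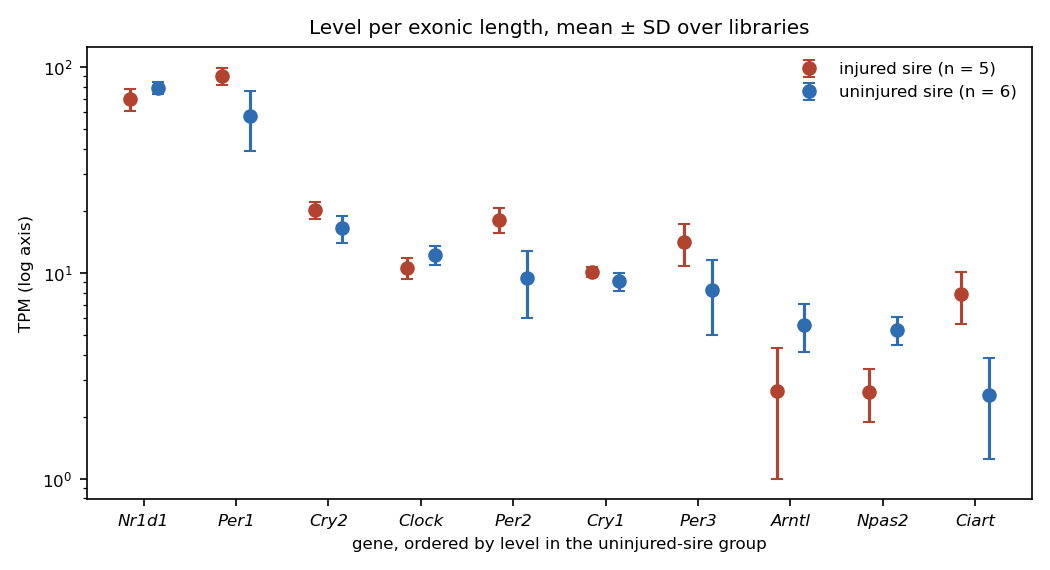
Level of each member per exonic length in TPM (log axis), mean ± SD over 5 injured-sire libraries (left of each pair) and 6 uninjured-sire libraries (right), ordered by the uninjured-sire mean. Nr1d1 and Per1 are the highest in both groups, and Ciart is lowest in the uninjured-sire group at 2.55 TPM.

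On the GRCm39 assembly used for counting, Npas2 (chromosome 1, 39232812 to 39402317, plus strand) and Per2 (chromosome 1, 91343704 to 91387046, minus strand) share a chromosome, as do Per1 (chromosome 11, 68986043 to 69000786, plus) and Nr1d1 (chromosome 11, 98658758 to 98666159, minus). Arntl lies on chromosome 7 (112806672 to 112913333, plus), Clock on 5 (76357715 to 76452639, minus), Per3 on 4 (151088109 to 151129122, minus), Cry1 on 10 (84967564 to 85020928, minus), Cry2 on 2 (92233991 to 92264388, minus) and Ciart on 3 (95785815 to 95789563, minus). The spans run from 3749 bp for Ciart to 169506 bp for Npas2. Counts are over all exons of a gene, so isoforms were not separated.

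Genes most like the loop were sought by correlating each gene's deviations from its group means with those of the activator-minus-repressor balance over the 11 libraries. Among 10646 genes, members left out, the 6 most negative, which followed the repressors, included 3 of the 4 listed D-box factors, Hlf (r = -0.93), Dbp (r = -0.91) and Tef (r = -0.91), transcription factors that the clock drives; the remaining factor, Nfil3, was not among them. With them stood Adgre1 (r = -0.93), a macrophage surface receptor gene, Ppat (r = -0.93), an enzyme gene of purine synthesis, and Nr3c2 (r = -0.91), the mineralocorticoid receptor gene. The 6 most positive were Nup62 (r = 0.95), a nuclear pore gene, Asb2 (r = 0.91), a ubiquitin ligase subunit gene of muscle, Jph2 (r = 0.90), the junctophilin gene of cardiac dyads, Eno3 (r = 0.90), the muscle enolase gene, Map7d1 (r = 0.89) and Caskin2 (r = 0.88). These values are the extremes of many genes over 11 libraries that share depth and scaling, and they carry no p.

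Beyond the members, 64 other genes of the clock pathway were listed, with earlier results of these data known, and 62 were tested. Of these, 2 rose in the offspring of injured males, none fell in the edgeR test (adjusted p below 0.05, as for 0.105% of all genes), and 13 had an unadjusted edgeR p below 0.05, as did 8.96% of all genes. The median log2 fold change was 0.02 over the 62 and 0.0002 over all genes, and 42 of the 62 were higher and 20 lower. By list, the median was 0.50 for the D-box factors, 0.40 for Bhlhe40 and Bhlhe41 and 0.44 for genes known to cycle in most organs. In the remaining lists it was -0.10 to 0.03. Some genes stand in more than 1 list. Since the lists were chosen with results known, their counts and p-values here and below are a description and no separate support. Both genes that rose lie outside the transcriptional loop itself. Usp2 encodes a deubiquitinase and measured 182 ± 13.6 CPM in injured-sire libraries (SD, n = 5) and, in uninjured-sire libraries, 129 ± 13.7 CPM (SD, n = 6). Its log2 fold change was 0.50 ± 0.0689 (SE), with an edgeR adjusted p of 0.0016. Rbm3, which encodes a cold-inducible RNA-binding protein, measured 78.3 ± 8.27 CPM in injured-sire and, in uninjured-sire libraries, 59.3 ± 6.89 CPM, with a log2 fold change of 0.40 ± 0.0791 (SE) and an edgeR adjusted p of 0.0484. The call of Rbm3 was lost when any of 8 libraries was left out (replicates 12, 13, 14 and 17 of the injured-sire and 19, 20, 21 and 23 of the uninjured-sire group), while Bhlhe40 and Tef were called as well without uninjured-sire replicate 22.

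The D-box factors had none of 4 genes called, and 2 with an unadjusted edgeR p below 0.05. Tef measured 186 ± 21.7 CPM in injured-sire and 131 ± 24.1 CPM in uninjured-sire libraries (log2 fold change 0.51 ± 0.124 SE, edgeR adjusted p = 0.206). Hlf measured 45.8 ± 8.88 CPM in injured-sire and 32.7 ± 7.23 CPM in uninjured-sire libraries (edgeR adjusted p = 0.405), and Dbp 75.0 ± 24.5 CPM in injured-sire and 48.2 ± 20.0 CPM in uninjured-sire libraries (edgeR adjusted p = 0.626). D-box letters, which these factors bind, are printed above for Per3 and Per1. Whether the factors act there in these hearts was not tested.

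The second loop, which sets Arntl transcription through the ROR element, had none of 4 genes called by edgeR and none with an unadjusted p below 0.05. Rora, an activator at that element, differed by 0.12 ± 0.0650 on the log2 scale (SE; edgeR adjusted p = 0.605), and Nr1d2, the paralog of Nr1d1, by 0.20 ± 0.116 (edgeR adjusted p = 0.674). The repressor genes Bhlhe40 (0.38 ± 0.113, edgeR adjusted p = 0.291) and Bhlhe41 (0.42 ± 0.197, edgeR adjusted p = 0.577), whose proteins bind E-boxes, were not called. Of the other bHLH-PAS genes and partners none of 3 was called: Timeless (-0.54 ± 0.162, edgeR adjusted p = 0.254), Tipin (0.38 ± 0.119, edgeR adjusted p = 0.264) and Arntl2, a paralog of Arntl (-0.10 ± 0.143, edgeR adjusted p = 0.897).

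Kinase, phosphatase and ubiquitin pathway genes, whose products act on clock proteins after translation, showed few differences. None of 11 kinase and phosphatase genes was called, and 1, Csnk1d, which encodes a kinase of the PERIOD proteins, had an unadjusted p below 0.05 (log2 fold change 0.13 ± 0.0623 SE, edgeR adjusted p = 0.545). Prkaa2 (0.06 ± 0.0684, edgeR adjusted p = 0.845) and Csnk2b (-0.02 ± 0.0591, edgeR adjusted p = 0.963) came next. Of 11 tested genes of the ubiquitin pathway Usp2 alone was called, followed by Spsb4 (0.42 ± 0.147, edgeR adjusted p = 0.351) and Ddb1 (0.09 ± 0.0505, edgeR adjusted p = 0.651). Of 24 chromatin and RNA-binding partners Rbm3 alone was called, followed by Cirbp (0.27 ± 0.0863, edgeR adjusted p = 0.307) and the histone demethylase gene Kdm5a (0.20 ± 0.0686, edgeR adjusted p = 0.326). Of 8 genes known to cycle in most organs, some of which stand in other lists too, all 8 were higher in the injured-sire group. An unadjusted edgeR p below 0.05 was found for 4 of the 8, against 8.96% of all genes tested. Usp2 alone of the 8 was called. This list too was chosen with results known, so its counts are a description only. Wee1, a cell-cycle kinase gene, measured 15.8 ± 2.16 CPM in injured-sire and 11.4 ± 2.27 CPM in uninjured-sire libraries (edgeR adjusted p = 0.18).

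Library facts bear on these values as follows. Total counts ran from 30537315 to 42090257 per library. A sex-linked score, log2 CPM of Xist minus the mean of Y-linked genes, was 8.44 to 11.7 in replicates 12, 15, 17, 19 and 21. In the remaining libraries, replicate 16 among them, it was -7.71 to -3.60, so the sexes were not balanced between the libraries compared. Ventricular cardiomyocyte genes summed to 87565 to 100816 CPM in the 5 injured-sire libraries and 83824 to 95629 CPM in the uninjured-sire libraries, and 7 atrial genes, of which 1 was called, to 4036 to 4616 CPM in the 5 injured-sire and 3788 to 4454 CPM in the uninjured-sire libraries. Airway and lung genes summed to 40.9 to 671 CPM in the 5 injured-sire libraries, 1.08 CPM in replicate 16 and 0.909 to 416 CPM in the uninjured-sire libraries. All 9 tested genes of the 12 were higher in the injured-sire group and none was called. Of the 12, 0 to 4 were at 0 in the 5 injured-sire libraries and 0 to 7 in the uninjured-sire libraries, most often the surfactant genes Sftpb, Sftpc and Sftpa1 and the regulator gene Nkx2-1, while the club cell gene Scgb1a1 was detected in every library. In the injured-sire group, replicates 12 to 15, with 139 to 671 CPM of airway genes, had activator-minus-repressor balances of -2.08 to -1.73, and replicates 17 and 16, with 40.9 and 1.08 CPM, had the highest balances of that group, -0.79 and -1.03. In the uninjured-sire group, replicates 18 and 21, with 416 and 304 CPM, had balances of 0.09 and 0.22, and replicates 19, 20, 22 and 23, with 0.909 to 5.94 CPM, had balances of -1.26 to 0.12. Fat genes summed to 1704 to 2329 CPM in the 5 injured-sire and 1331 to 2194 CPM in the uninjured-sire libraries, with 10 of 11 tested genes higher and none called. With airway and fat scores as covariates every member kept its direction, and Clock alone moved by more than 1.5 times, to a log2 fold change of -0.15 against -0.25. Beyond this, the part of either tissue in the clock differences was not tested.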

How the data were processed

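RNA was sequenced in bulk from 12 heart ventricle samples, and the authors deposited 1 table of raw counts per Ensembl gene, made with featureCounts 2.1.1 (strand setting 2, no paired-end or multi-mapping option) on Ensembl release 114 of GRCm39, per the file headers. STAR 2.7.10a and Subread 2.0.3 appear in the submitters' processing notes. The other column used, exonic length in bases, is also as deposited, per the file headers. The table's 11 further sample columns were left aside. Symbols of GENCODE M21 were matched to 51487 of 78317 IDs, for names only.

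Members and lists were chosen with earlier results of these data known. In R 4.3.3, edgeR 4.0.16 compared 5 with 6 libraries (filterByExpr with minimum count 10 and minimum total 15, TMM factors, robust quasi-likelihood F test, two-sided, Benjamini-Hochberg over 17130 genes, threshold 0.05), and SEs come from the F statistic. CPM and log2 CPM (prior count 2) use TMM factors over all 12 libraries, and TPM use all genes. Simulated data were used to test the scripts. Named genes are all members, in each list the 3 lowest p, and the 6 genes most and least like the balance (average log2 CPM of at least 2, no predicted names); 1 gene that this rule names is not reported here. Replicates are separate samples by their labels, which name no sire or litter, and p-values reflect only how far these animals differ. No library repeated another: in the 30 within-group pairs the chi-square over its degrees of freedom was 13.3 to 40.3. Alternatives were all 12 libraries, each library left out, DESeq2 1.42.0 size factors and Wald test, no scaling factor, limma 3.58.1 voom with quality weights, no filter, sex-linked, airway and fat covariates, and a prior count of 0.5. Promoter sequences are from RefSeq, GRCm38.p6, a build other than that of the counts. Proteins were not used here.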

Additional observations from a re-analysis of the deposited data

Results flagged for a closer look

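In 4 of 33 checked sets of 5 or 6 libraries, 1 library stood far from the rest of its set, where chance flags about 1 in 20. The sets share libraries, many of the genes vary together and the balance is computed from them. The flags are therefore not independent, and their number cannot be weighed against that rate. Uninjured-sire replicate 22 was low in Arntl, with a gap to the next library of 0.672 of the range of the group. Injured-sire replicate 17 was low in Per3 (0.786 of the range) and in Ciart (0.853), and high in the activator-minus-repressor balance (0.729), each over the 5 libraries without replicate 16. With replicate 16 included, none of those 3 stood apart. Replicate 16, which was left out of the edgeR comparison of 5 and 6 libraries, lay above every uninjured-sire library in Cry1 (3.87 log2 CPM) and in Ciart (2.09 log2 CPM). For Ciart it was nearly level with uninjured-sire replicate 22, at 156 against 153 counts (4.20 against 4.17 CPM).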

How the results depend on the processing

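Every member kept the direction of its log2 fold change in all 19 alternatives, with each value within 1 within-group SD of the reported one. The members were chosen by their differences between the groups, so the calls of members that follow are a description and no separate support. Npas2 was among the genes called in each alternative. Ciart was called too without injured-sire replicate 17, without uninjured-sire replicate 22, with no filter, with the DESeq2 Wald test, with limma voom and with the sex-linked covariate, Per1 and Per2 without uninjured-sire replicate 22, Per2 with the DESeq2 Wald test, and Clock and Nr1d1 with no filter. The activator-minus-repressor difference of -1.44 ran from -1.66 to -1.34 with 1 library left out. The 18 genes called over all genes became 236 with no filter and 130 with the DESeq2 Wald test, and 8 to 43 with 1 library left out. The split of 9 higher and 9 lower became 17 and 8 with no scaling factor and 16 and 3 with airway and fat covariates. By alternatives chosen after seeing the data, the 2 other clock pathway genes called became 8 with no filter, 4 with the DESeq2 Wald test, 1 with the sex-linked and 1 with the airway and fat covariates, and 1 to 4 with 1 library left out. The DESeq2 Wald test added Bhlhe40 and Tef, both higher, and the fit with no filter also called Timeless, which was lower. Usp2 was called in each alternative and Rbm3 was lost with either set of covariates. Some correlations with Arntl that had not passed after adjustment changed sign. In the uninjured-sire group, without the 2 libraries farthest from the median of Arntl, r was -0.0314 for Npas2, -0.77 for Clock, -0.60 for Cry1 and 0.000853 for Ciart. Over all 6 libraries of that group the values were 0.79, 0.75, 0.31 and -0.81 in the same order. With no scaling factor it was -0.13 for Nr1d1 in the uninjured-sire group and -0.0878 for Cry2 in the injured-sire group. Without length, 2 of the 10 members kept their rank of level. The cause of these changes was not tested. No paired analysis was possible because no replicate number occurs in both groups. Low counts limit Ciart most, at 43 to 297 per library.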
